A study of Mus musculus with 8 samples.

Results

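The nuclear-encoded subunits of respiratory complexes II to V were taken from a liver RNA-seq count table as the protein-coding genes whose names match the mouse Sdh, Uqcr, Cox4 to Cox8 and Atp5 name patterns. The rule reads gene names and no measured value, but this group of genes was taken up with earlier results of these data known. It gave 45 genes of the 28073 genes in the table, of which 41 had enough counts to be tested, among 14088 tested genes in all. Livers came from C57BL/6 mice, a common inbred laboratory strain, aged 21 to 22 weeks, of which 4 had been fed a high-fat diet and 4 a low-fat control diet. The labels name no genotype beyond the strain and no treatment beyond the diet, and the series design calls the mice biological replicates. The p-values therefore measure the spread between these mice only.

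Complex II (succinate dehydrogenase) passes electrons from succinate to ubiquinone, complex III (the cytochrome bc1 complex) passes them on to cytochrome c, and complex IV (cytochrome c oxidase) gives them to oxygen. Complexes III and IV pump protons across the inner mitochondrial membrane, and complex V (ATP synthase) uses the returning protons to make ATP, of which the liver spends much on glucose, urea and lipid synthesis. The catalytic core of complex IV and parts of complexes III and V are encoded by mitochondrial DNA; those transcripts were not analysed here.

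On the high-fat diet 19 of the 41 tested subunit genes fell and none rose (edgeR's quasi-likelihood test, Benjamini-Hochberg adjusted p at most 0.05 over all tested genes). That is 46.3% of the members called lower, where 9.61% of all tested genes were called, 5.86% lower and 3.75% higher. DESeq2 called 26 members lower, where it called 8.47% of all genes lower, and limma-voom 19, where it called 5.67%; neither called a member higher. A member that was not called is not thereby shown to be unchanged. The calls came from every complex: 1 of 4 genes of complex II, 3 of 8 of complex III, 7 of 12 of complex IV and 8 of 17 of complex V. The differences were small. The median log2 fold change of the 41 genes, high-fat over control diet, was -0.23, with a range of -0.63 to 0.11, beside 0.0069 over all tested genes. Of the 41, 39 had a value below zero. An unadjusted p under 0.05 was found for 32 of the 39 and for neither of the exceptions.

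In 30 of the 41 genes all 4 high-fat livers lay below all 4 control livers in CPM (counts per 1000000 of the library size, scaled by the TMM method), against 9.97% of all tested genes. None had all 4 high-fat livers above the controls, against 7.28% of all tested genes. Among well-expressed genes, of 2834 protein-coding genes with a control mean of at least 50 CPM, 13.6% were called lower and their median log2 fold change was -0.045. Of those 2834 genes, 584 had all 4 high-fat livers below all 4 controls and 230 had them all above. In bulk liver RNA, fewer cells of a type and less RNA per cell cannot be told apart.

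**Figure D1:**
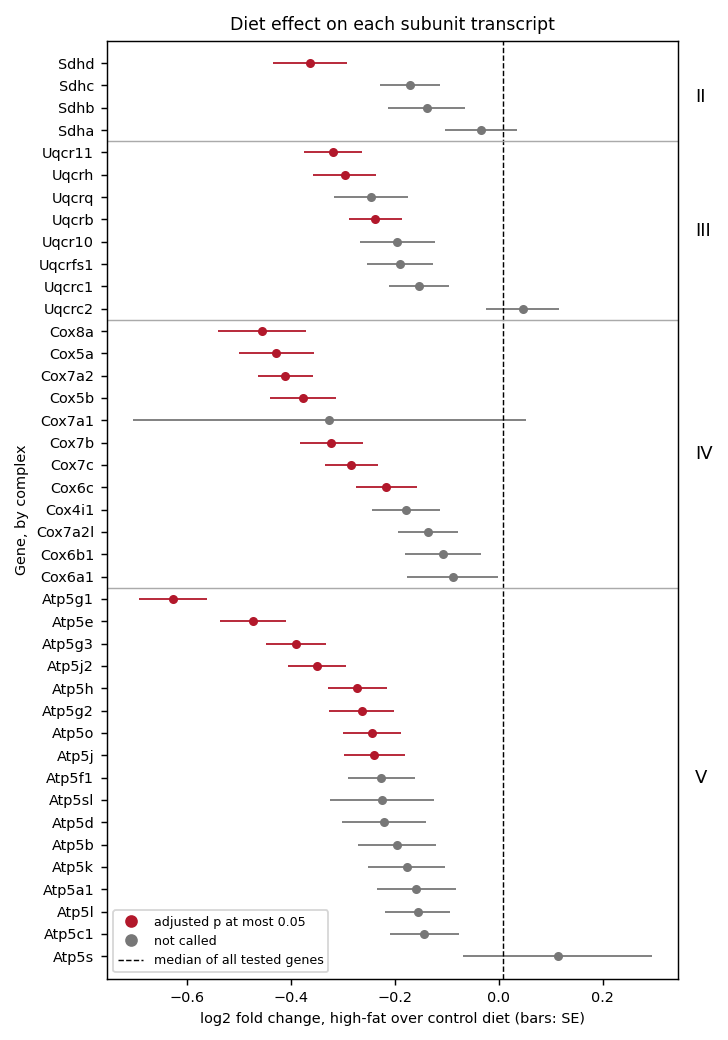
Log2 fold change, high-fat over control diet, of the 41 tested subunit genes (horizontal axis), grouped by complex and ordered by value, with bars showing the SE of the edgeR estimate; red marks the 19 genes with an adjusted p at most 0.05, and the dashed line is the median over all tested genes at 0.0069. Of the 41 points, 39 lie below zero, from -0.63 for Atp5g1 upward, and the exceptions are Uqcrc2 and Atp5s.

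Depth was even, with total counts per library of 26643020 to 30013106, so that 1 count stood for 0.0338 to 0.0388 CPM. The TMM factors were 1.02 to 1.07 in high-fat livers and 0.955 to 0.976 in control livers, and the size of the differences moves with them. Under library totals without factors the all-gene median shifted to 0.10, the members' median was -0.13, and 13 members were called lower. The balance of all tested genes then turned, with 534 called lower (3.79%) and 1111 higher. Relative to that shift 39 of the 41 members again lay below the median of all genes. Adipoq, a fat cell transcript, had 42, 0, 0 and 32 counts in control replicates 1 to 4 and 2 to 10 counts in high-fat livers. Without control replicates 1 and 4 there were 10 members called lower, where 3.18% of all tested genes were called lower. Leaving out single libraries gave 12 to 18 members, the lowest without high-fat replicate 3, where the share over all tested genes was 3.04%. Each of these shares was below the 5.86% of the fit on all libraries. That did not hold for every left-out library: without control replicate 3 the share was 5.91%, with 18 members called lower.

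Upstream DNA is given for 5 of the genes, picked after their values were seen, so that promoters of called genes stand beside that of an uncalled one. Sdhd is the called gene of complex II, Cox5a a called and Cox6a1 an uncalled gene of complex IV, and Atp5g1 and Atp5g3 are called genes of the same ATP synthase ring. RefSeq (GRCm38.p6) promoter windows, 250 bases before to 50 after the start, were matched for 33 of the 45 genes. The bases printed end before the start of the gene in both RefSeq and the deposited table, and before any neighbouring gene. They run 5′ to 3′ on the gene's strand, and capitals mark a match, on either strand, to the letters GCGCA and GCGC with any base between them (NRF1), CCGGAAG (ETS factors such as GABPA), CCAAT (NF-Y), AAGATGGC (YY1) or TCAAGGTCA (estrogen-related receptors).
Sdhd, complex II, chr9:50603850-50603900, minus strand: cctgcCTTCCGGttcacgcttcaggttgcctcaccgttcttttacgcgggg
Cox5a, complex IV, chr9:57521112-57521231, plus strand: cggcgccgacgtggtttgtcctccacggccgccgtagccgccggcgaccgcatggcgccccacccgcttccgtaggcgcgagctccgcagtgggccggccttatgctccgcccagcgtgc
Cox6a1, complex IV, chr5:115348982-115349101, minus strand: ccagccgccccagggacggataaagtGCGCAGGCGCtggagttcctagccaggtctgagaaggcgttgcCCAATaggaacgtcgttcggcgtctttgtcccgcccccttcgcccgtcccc
Atp5g1, complex V, chr11:96075671-96075790, minus strand: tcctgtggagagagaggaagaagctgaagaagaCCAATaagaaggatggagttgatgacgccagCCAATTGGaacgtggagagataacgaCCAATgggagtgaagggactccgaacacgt
Atp5g3, complex V, chr2:73911327-73911446, minus strand: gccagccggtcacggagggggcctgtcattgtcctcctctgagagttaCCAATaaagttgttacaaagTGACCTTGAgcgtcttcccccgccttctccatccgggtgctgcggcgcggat
Sdhd is cut to 51 bases because Timm8b starts there on the opposite strand. Its stretch holds the ETS letters, Atp5g3 holds CCAAT and the estrogen-related receptor letters, Atp5g1 holds CCAAT 4 times with a pair of them overlapping on opposite strands, Cox6a1 holds the NRF1 letters and CCAAT, and Cox5a holds none of the 5 motifs.

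Over the full windows the NRF1 letters were in 10 of the 33 members (30.3%), against 5.19% of 27025 genes with a window. The ETS letters were in 12 (36.4%, against 9.93%) and CCAAT in 18 (54.5%, against 41.1%). The estrogen-related receptor letters were in Sdhd and Atp5g3 (6.06%, against 0.466%) and the YY1 letters in Atp5j and Atp5j2 (6.06%, against 3.19%). NRF1 letters were in 5 of 17 called and 5 of 14 uncalled genes, ETS letters in 7 called and 5 uncalled, and CCAAT in 8 called and 9 uncalled. The estrogen-related receptor and YY1 letters were each in 2 called and 0 uncalled genes. The 27025 genes were not limited to tested genes, so these shares do not compare the members with genes of like expression. These matches describe letters and do not show binding.

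In complex II 1 of 4 genes was called, and the median log2 fold change was -0.16. Sdhd, a membrane anchor that helps bind ubiquinone, was the called gene. It had 180.2, 181, 177 and 180.1 CPM in high-fat livers, against 231, 218, 259.7 and 216 CPM in control livers. The high-fat livers were nearly level and all below the controls (mean 179.7 ± 1.65 CPM in high-fat and 231 ± 20.1 CPM in control livers, SD, n = 4 each; log2 fold change -0.36 ± 0.071 (SE), edgeR adjusted p = 0.0143). Sdhd lies on chr9:50596338-50603849, minus strand (mm10, ENSMUSG00000000171.4). Sdhc, the other anchor, had 139, 136, 137 and 139 CPM in high-fat livers and 150.1, 148, 157 and 166 CPM in control livers. Its groups did not overlap either, but edgeR did not call the difference (-0.17 ± 0.058, edgeR adjusted p = 0.0979). DESeq2 called Sdhc lower (adjusted p = 0.0238).

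The catalytic pair of complex II was not called. Sdha, the flavoprotein that oxidises succinate, had 588, 599, 605 and 607 CPM in high-fat livers and 641, 559.9, 628 and 628 CPM in control livers (-0.034 ± 0.069, edgeR adjusted p = 0.799). Sdhb, the iron-sulfur protein that carries the electrons onward, had 201, 204, 207 and 207 CPM in high-fat livers and 226, 206, 215 and 255 CPM in control livers (-0.14 ± 0.074, edgeR adjusted p = 0.282). For both genes control replicate 2 lay below the highest high-fat liver, so the groups overlapped. Per kb of principal transcript Sdha was the most abundant member of the complex, at 206.8 CPM per kb in high-fat and 211.8 CPM per kb in control livers.

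The ratio of counts inside a library does not depend on library scaling. The count of Sdhd divided by that of Sdha was 0.307, 0.303, 0.293 and 0.297 in high-fat livers, against 0.360, 0.389, 0.413 and 0.344 in control livers. Every high-fat ratio was below every control ratio (exact two-sided permutation test, p = 0.0286, the smallest that 70 splits of 4 against 4 allow). Of 5 such ratios, chosen after the values were seen, none passed after Benjamini-Hochberg adjustment, this one at 0.0714. For Sdhc over Sdha the ratio was 0.230 ± 0.0049 in high-fat and 0.253 ± 0.014 in control livers (SD, n = 4 each; exact permutation p = 0.0571, adjusted 0.0952), and for Sdhb over Sdha 0.341 ± 0.00095 in high-fat and 0.367 ± 0.028 in control livers (exact permutation p = 0.0857, adjusted 0.107).

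In complex III the edgeR calls were among the small subunits, and the median over all 8 genes was -0.22 in log2 fold change. Of the 5 small subunits, 3 fell and all 5 had groups that did not overlap. The core proteins Uqcrc1 and Uqcrc2 and the Rieske protein Uqcrfs1 were not called by edgeR. DESeq2 did call Uqcrc1 (adjusted p = 0.0194) and Uqcrfs1 (0.0262) lower, and also the small subunit Uqcrq (0.0123). Uqcr11, a small accessory subunit, had 168, 166, 165 and 173 CPM in high-fat livers, against 206, 213, 217 and 203 CPM in control livers (-0.32 ± 0.055, edgeR adjusted p = 0.00876). Uqcrh, the hinge protein next to cytochrome c1, had 162, 161, 157 and 162 CPM in high-fat livers, against 195, 183, 201 and 209 CPM in control livers (-0.30 ± 0.061, edgeR adjusted p = 0.0167). Uqcrb, which lies near the ubiquinone site, had 91.1, 95.0, 90.9 and 95.0 CPM in high-fat livers, against 111, 109, 112 and 106 CPM in control livers (-0.24 ± 0.051, edgeR adjusted p = 0.0202). In all 3 the high-fat livers formed a tight group below the controls. The call for Uqcrb held in 8 of 17 alternatives (edgeR, DESeq2 and limma-voom adjusted p from 4.80e-05 to 0.130); without any of the 4 high-fat livers or control replicate 1 it was 0.0504 to 0.0609. Uqcr11 lost its call when exon length and GC trends were removed (adjusted p over the 17 alternatives from 2.36e-09 to 0.105), and Uqcrh without high-fat replicate 3 (adjusted p = 0.0503) and without control replicates 1 and 4 (adjusted p over the 17 alternatives from 2.16e-05 to 0.0793).

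Uqcrq, a further small subunit, came close, with 156, 172, 153 and 163 CPM in high-fat livers and 189, 179, 185 and 211 CPM in control livers (-0.25 ± 0.071, edgeR adjusted p = 0.0606). Uqcr10, the remaining one, ranged over 69.6 to 83.8 CPM in high-fat and 86.1 to 96.9 CPM in control livers (-0.20 ± 0.073). Uqcrfs1, the Rieske iron-sulfur protein that takes electrons from ubiquinol, had 145, 141, 148 and 149 CPM in high-fat livers and 182, 161, 159.6 and 163 CPM in control livers (-0.19 ± 0.063, edgeR adjusted p = 0.0922). Its groups did not overlap, and control replicate 1 stood above the other controls. Uqcrc1, a core protein related to mitochondrial processing peptidase, ranged over 236 to 243 CPM in high-fat and 254 to 280.0 CPM in control livers (-0.15 ± 0.058, edgeR adjusted p = 0.136). Uqcrc2, the other core protein, had 258, 255, 261 and 266 CPM in high-fat livers and 249, 226, 262 and 272 CPM in control livers (0.046 ± 0.071, edgeR adjusted p = 0.733). The high-fat livers lay inside the control range of Uqcrc2. Uqcr11 had the highest level per length in the complex, 377 CPM per kb in high-fat and 471 CPM per kb in control livers.

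**Figure D2:**
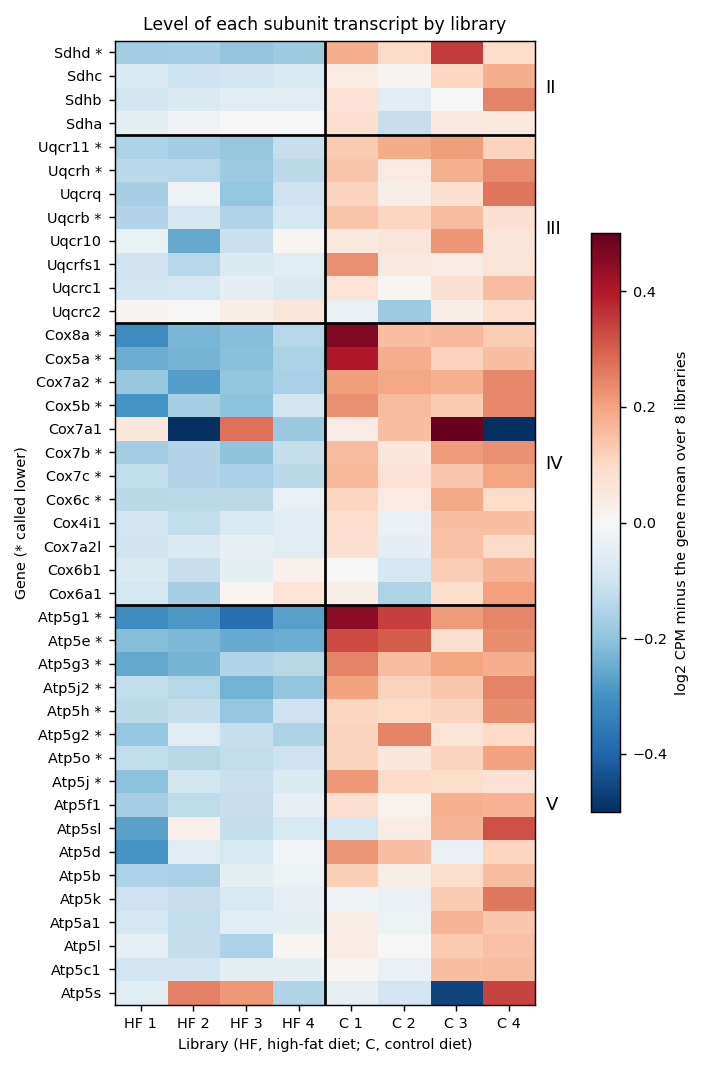
Level of each tested subunit gene (rows, by complex) in each library (columns, 4 high-fat then 4 control), as log2 CPM minus the gene's mean over the 8 libraries, with the colour scale cut at 0.5 either way and an asterisk on called genes. High-fat columns are mainly blue and control columns mainly red. Genes that do not follow that split include Uqcrc2, Atp5s and the low-count Cox7a1. Others, such as Cox6a1 and Cox6b1, follow it only in part.

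In complex IV 7 of 12 genes were called, or 58.3%; DESeq2 called 8 of 12 here and 6 of 8 in complex III. The complex IV median log2 fold change was -0.30. Both genes of subunit 5 fell. Cox5a, a nuclear-encoded subunit on the matrix side, had 93.4, 94.3, 96.0 and 99.5 CPM in high-fat livers, against 147, 126, 120.2 and 123 CPM in control livers (-0.43 ± 0.072, edgeR adjusted p = 0.00836). Cox5b, which binds zinc, had 123, 134, 130.3 and 141 CPM in high-fat livers, against 176, 168, 164 and 177 CPM in control livers (-0.38 ± 0.063, edgeR adjusted p = 0.00823). The highest high-fat liver stayed well below the lowest control for each gene, and both calls held in all 17 alternatives.

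Of the subunit 7 genes, Cox7a2, Cox7b and Cox7c fell. They encode small single-helix proteins at the rim of the enzyme. Cox7a2, the form found in liver, had 100.4, 94.6, 100.02 and 102 CPM in high-fat livers, against 132, 131, 129.7 and 135 CPM in control livers (-0.41 ± 0.053, edgeR adjusted p = 0.00320). Cox7b had 159, 162, 156 and 165 CPM in high-fat livers, against 199, 186, 207 and 209.5 CPM in control livers (-0.32 ± 0.061, edgeR adjusted p = 0.0126). Cox7c had 86.8, 85.4, 84.4 and 86.0 CPM in high-fat livers, against 106, 99.3, 104 and 108 CPM in control livers (-0.28 ± 0.052, edgeR adjusted p = 0.0106). The groups did not overlap in any of them; the calls of Cox7b and Cox7c were lost in 1 alternative, without control replicates 1 and 4 (adjusted p = 0.0646 for each; over the 17 alternatives from 3.68e-06 to 0.0646 and from 1.57e-06 to 0.0646). Cox7a2 lies on chr9:79755241-79759853, minus strand (mm10, ENSMUSG00000032330.6). Cox7a2l, a relative known for joining complexes III and IV into supercomplexes, ranged over 81.6 to 85.1 CPM in high-fat and 84.7 to 96.8 CPM in control livers (-0.14 ± 0.057, edgeR adjusted p = 0.174).

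Cox8a, the widely expressed form of subunit 8, fell as well. It had 83.8, 88.8, 89.8 and 94.4 CPM in high-fat livers, against 143, 116, 117 and 114 CPM in control livers (-0.46 ± 0.084, edgeR adjusted p = 0.0114). Control replicate 1 was the highest, but the other controls were also above every high-fat liver, and the call held in all 17 alternatives. Cox6c, a subunit 6 gene, had 159, 159, 159 and 169.7 CPM in high-fat livers, against 188, 179, 199 and 186 CPM in control livers (-0.22 ± 0.059, edgeR adjusted p = 0.0494). That call was marginal: with any of the 8 libraries left out the edgeR adjusted p was 0.0601 to 0.131, and over all 17 alternatives it was 0.00227 to 0.204. Vps13b overlaps Cox6c on the opposite strand. The count of the whole Vps13b gene, not of the shared stretch, was 61.7% of that of Cox6c, and the Vps13b log2 fold change was -0.015.

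The other subunit genes of complex IV were not called by edgeR, though DESeq2 called Cox4i1 lower (adjusted p = 0.0248). Cox4i1, whose product is a regulatory subunit that binds ATP, had 304, 299, 308 and 312 CPM in high-fat livers and 345, 319, 361 and 361 CPM in control livers (-0.18 ± 0.065, edgeR adjusted p = 0.119). It had the highest level per length of the complex, 405 CPM per kb in high-fat and 459 CPM per kb in control livers. Its groups did not overlap. Gm20388 overlaps Cox4i1 on the same strand, and its whole-gene count was 16.4% of that of Cox4i1. Gm20388 rose by 0.38 (edgeR adjusted p = 0.00624). Cox6a1 had 148, 139.8, 158 and 165 CPM in high-fat livers and 160.2, 141, 167 and 181 CPM in control livers (-0.089 ± 0.087, edgeR adjusted p = 0.580). Cox6b1, on the cytochrome c side, had 195, 189, 199 and 208 CPM in high-fat livers and 205, 193, 223 and 231 CPM in control livers (-0.11 ± 0.073, edgeR adjusted p = 0.406). For Cox6a1 and Cox6b1 the groups overlapped.

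Complex IV has tissue-specific isoforms, and in these livers the muscle and testis forms were nearly absent on either diet. Cox7a1, the heart and muscle partner of Cox7a2, had 0.900, 0.602, 1.05 and 0.763 CPM in high-fat livers and 0.893, 0.962, 1.82 and 0.475 CPM in control livers (-0.33 ± 0.38, edgeR adjusted p = 0.645). These values rest on 17 to 31 counts per high-fat library and 13 to 53 per control library, and Cox7a1 made up 0.830% of the counts of the pair on the high-fat diet and 0.790% on the control diet. Cox4i2, a lung form, summed to 9 counts over the high-fat livers and 9 over the controls. Cox6a2, the muscle form, had 1 count in a high-fat liver and 0 in the other 7 libraries, where 3 counts, the limit that a count of 0 allows, would be 0.101 to 0.116 CPM. Cox6b2, a testis form, summed to 12 counts on the high-fat and 9 on the control diet, and Cox8b, a heart and muscle form, to 16 on the high-fat and 6 on the control diet. These 4 genes were too low to test. Cox7b2 and Cox8c were not analysed here.

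ATP synthase held the gene with the largest difference of all members, in its c ring, the rotor that turns with the passing protons. In mammals several genes encode the same mature c protein with different targeting peptides, and all 3 that were measured fell. Atp5g1 had 63.5, 64.8, 60.9 and 65.6 CPM in high-fat livers, against 108, 101, 91.6 and 93.5 CPM in control livers. Its mean was 35.2% lower on the high-fat diet (63.7 ± 2.05 CPM in high-fat and 98.3 ± 7.30 CPM in control livers, SD, n = 4 each; -0.63 ± 0.065, edgeR adjusted p = 0.00135). Atp5g1 lies on chr11:96068852-96075670, minus strand (mm10, ENSMUSG00000006057.15). Atp5g3, the most counted of the 3, had 164, 167, 177 and 178 CPM in high-fat livers, against 233, 218, 225 and 223 CPM in control livers (-0.39 ± 0.058, edgeR adjusted p = 0.00538). Atp5g2, the least counted, had 24.6, 26.99, 26.0 and 25.2 CPM in high-fat livers, against 30.4, 33.4, 29.5 and 30.1 CPM in control livers (-0.26 ± 0.062, edgeR adjusted p = 0.0290). Groups did not overlap for any of the 3, but the Atp5g2 call held in 8 of 17 alternatives (adjusted p from 0.00606 to 0.166); without high-fat replicate 1, 3 or 4 or control replicate 1 or 2 it was 0.0580 to 0.0815. How reads shared by near-identical copies or processed pseudogenes were assigned is not given, so values of such genes carry that uncertainty.

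The balance within the c ring could be read inside each library. Atp5g1 over Atp5g3 was 0.387, 0.388, 0.345 and 0.368 in high-fat livers, against 0.462, 0.461, 0.407 and 0.420 in control livers, with no overlap (exact two-sided permutation p = 0.0286, adjusted over the 5 ratios 0.0714). Atp5g2 over Atp5g3 was 0.150 ± 0.0085 in high-fat and 0.138 ± 0.011 in control livers (SD, n = 4 each; exact permutation p = 0.114, adjusted 0.114).

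In the catalytic F1 head and central stalk, edgeR called 1 of 5 genes lower, and DESeq2 called Atp5b lower too (adjusted p = 0.00991). Atp5e, the epsilon subunit of the central stalk, had 74.4, 73.8, 72.5 and 72.7 CPM in high-fat livers, against 108, 107, 91.4 and 101 CPM in control livers (-0.47 ± 0.064, edgeR adjusted p = 0.00401). The high-fat livers were nearly level and all lay below the controls. Atp5b, the beta subunit that holds the catalytic sites, had 1191, 1186, 1285 and 1304 CPM in high-fat livers and 1441, 1355, 1416 and 1478 CPM in control livers (-0.20 ± 0.076, edgeR adjusted p = 0.141). It had the highest level per length of the complex, 648 CPM per kb in high-fat and 742 CPM per kb in control livers. The alpha subunit gene Atp5a1 ranged over 1151 to 1214 CPM in high-fat and 1233 to 1412 CPM in control livers (-0.16 ± 0.076, edgeR adjusted p = 0.236). The gamma subunit gene Atp5c1 ranged over 250 to 259 CPM in high-fat and 261 to 298 CPM in control livers (-0.14 ± 0.066, edgeR adjusted p = 0.216). For Atp5a1, Atp5b and Atp5c1 the groups did not overlap, and for Atp5d, the delta subunit, they did (114 to 138 CPM in high-fat and 137 to 163 CPM in control livers; -0.22 ± 0.081).

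The peripheral stalk, which holds the head still while the rotor turns, had 3 of 4 genes lower. Atp5h, subunit d, had 98.3, 99.2, 94.2 and 100.2 CPM in high-fat livers, against 116, 115, 116 and 126 CPM in control livers (-0.27 ± 0.056, edgeR adjusted p = 0.0168). Atp5o, the oligomycin sensitivity protein at the top of the stalk, had 153, 151, 153 and 155 CPM in high-fat livers, against 180.2, 173, 180.1 and 192 CPM in control livers (-0.24 ± 0.056, edgeR adjusted p = 0.0250). Atp5j, coupling factor 6, had 102, 109.9, 108 and 111 CPM in high-fat livers, against 136, 125, 125 and 123 CPM in control livers (-0.24 ± 0.059, edgeR adjusted p = 0.0347). All 3 were separated between the diets, but some calls were lost without single libraries. Atp5h was called in 14 of 17 alternatives (adjusted p from 5.95e-05 to 0.0748), and not without high-fat replicate 3 (0.0515). Atp5o was called in 9 (adjusted p from 4.52e-05 to 0.110), with 0.0569 to 0.0766 without any of the 4 high-fat livers or control replicate 1. Atp5j was called in 8 (adjusted p from 0.00161 to 0.152), with 0.0644 to 0.0938 without any of the 4 high-fat livers or control replicate 1 or 2. Gabpa overlaps Atp5j on the opposite strand, and its whole-gene count was 60.9% of that of Atp5j. Itsn1 overlaps Atp5o, with a whole-gene count of 23.2% of that of Atp5o. The log2 fold changes of Gabpa and Itsn1 were -0.038 and 0.087. Atp5f1, subunit b, was just outside the threshold, with 228, 235, 236 and 249 CPM in high-fat livers and 271, 259, 290.3 and 289 CPM in control livers (-0.23 ± 0.065, edgeR adjusted p = 0.0583). DESeq2 called Atp5f1 lower (adjusted p = 0.00434).

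Of the 3 small membrane subunits near the rotor, 1 fell. Atp5j2, subunit f, had 71.8, 70.9, 66.5 and 68.2 CPM in high-fat livers, against 90.0, 84.7, 86.0 and 93.0 CPM in control livers (-0.35 ± 0.056, edgeR adjusted p = 0.00641). Its groups lay far apart, and the call held in all 17 alternatives. Atp5k, subunit e, ranged over 91.4 to 96.3 CPM in high-fat and 96.8 to 119 CPM in control livers (-0.18 ± 0.074, edgeR adjusted p = 0.173), and Atp5l, subunit g, over 81.8 to 91.9 CPM in high-fat and 91.4 to 101 CPM in control livers (-0.16 ± 0.062, edgeR adjusted p = 0.151). The remaining pair of genes with an Atp5 name are not structural subunits. Atp5s, coupling factor B, had 3.94, 4.89, 4.77 and 3.70 CPM in high-fat livers and 4.00, 3.85, 2.98 and 5.19 CPM in control livers (0.11 ± 0.18, edgeR adjusted p = 0.744). Atp5sl, whose human counterpart is known in complex I assembly, ranged over 16.6 to 20.3 CPM in high-fat and 18.7 to 24.9 CPM in control livers (-0.23 ± 0.099, edgeR adjusted p = 0.196).

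**Figure D3:**
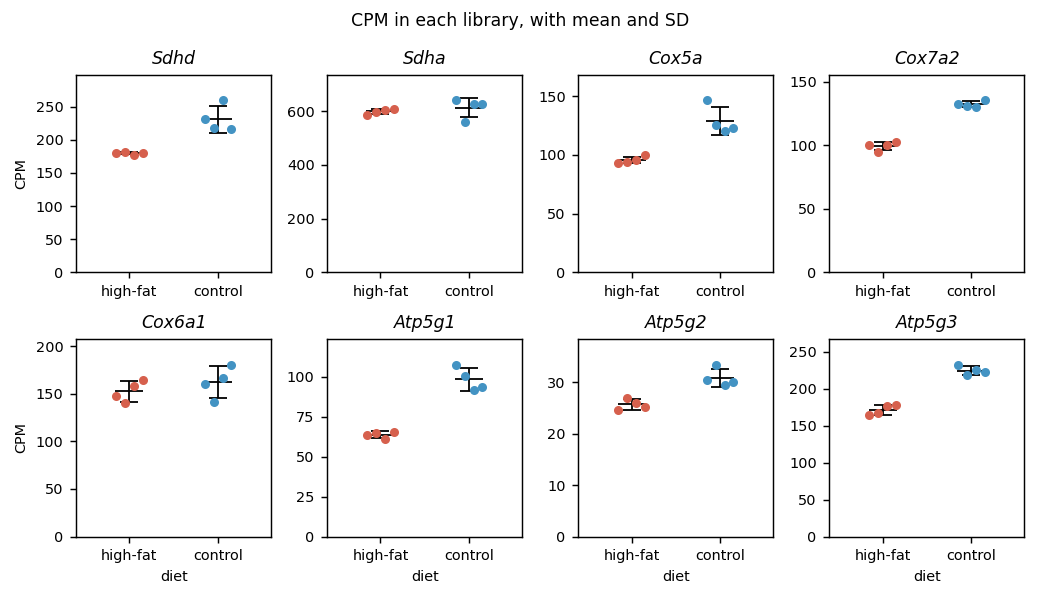
CPM in each library (vertical axis, from 0) for 8 subunit genes on the high-fat (left, red) and control (right, blue) diet, with bars for mean and SD (n = 4 each). Points do not overlap between the diets for Sdhd, Cox5a, Cox7a2, Atp5g1, Atp5g2 and Atp5g3, and overlap for Sdha and Cox6a1.

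Summed over members, the high-fat livers had 8007 ± 184 CPM and the control livers 9225 ± 357 CPM (mean ± SD, n = 4 each), with 7855 to 8243 CPM in high-fat and 8717 to 9537 CPM in control livers. For complex II the sums were 1122 ± 10.2 CPM in high-fat and 1226 ± 63.2 CPM in control livers, and for complex III 1305 ± 17.4 CPM in high-fat and 1481 ± 51.3 CPM in control livers. For complex IV they were 1564 ± 45.3 CPM in high-fat and 1862 ± 80.8 CPM in control livers, and for complex V 4016 ± 117 CPM in high-fat and 4657 ± 166 CPM in control livers. As a share of all counts, unscaled, the members took 0.801% to 0.860% in high-fat and 0.851% to 0.911% in control livers, ranges that overlap slightly. Sums are led by Atp5a1, Atp5b and Sdha, which edgeR did not call.

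Across the 41 members, as a description over genes that share the same libraries, the Spearman correlation of log2 fold change was 0.316 with mean CPM and 0.322 with principal transcript length. Over all tested genes it was -0.17 with mean CPM, and with exon length it was 0.198 over the members and 0.130 over all genes. Members were short, with a median exon length of 1831 bases against 4275 bases for all tested genes. With trends of each library on exon length and GC removed, 17 members were called lower, 16 of them among the 19, and the median was -0.20.

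Genes of related function were read by lists chosen with earlier results known. Of 36 complex I subunit genes 10 fell (27.8%), with a median log2 fold change of -0.16; Ndufb8 (-0.34, edgeR adjusted p = 0.00836) and Ndufb5 (-0.34, edgeR adjusted p = 0.00838) had the smallest p. Subunits of complexes III to V that the name patterns miss gave 3 lower of 5. Cyc1, cytochrome c1 of complex III, had 115, 113, 112 and 113 CPM in high-fat livers, against 147, 137, 129 and 143 CPM in control livers (-0.29 ± 0.058, edgeR adjusted p = 0.0150). Usmg5 (-0.25 ± 0.056, edgeR adjusted p = 0.0244) and 2010107E04Rik (-0.31 ± 0.056, edgeR adjusted p = 0.0106), both small ATP synthase proteins, fell too. Without control replicates 1 and 4 the calls of Cyc1 (edgeR adjusted p = 0.0841) and 2010107E04Rik (0.0584) were lost. Cyc1 also lost its call with exon length and GC trends removed (edgeR adjusted p = 0.0990). The Usmg5 call was lost without high-fat replicate 1, 2 or 3 or control replicate 1 (0.0665 to 0.0729; over the 17 alternatives 0.00115 to 0.117). Ndufa4, a complex IV subunit despite its name (-0.18 ± 0.058, edgeR adjusted p = 0.0797), and the ATP synthase inhibitor Atpif1 (-0.13 ± 0.083, edgeR adjusted p = 0.381) were not called by edgeR. DESeq2 called Ndufa4 lower (adjusted p = 0.00240).

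Assembly factors, the proteins that build the complexes, had a median log2 fold change of -0.0031. Of 38 such genes for complexes II to V edgeR called 0 in either direction, 9 had an unadjusted p under 0.05, and limma-voom called 0 and DESeq2 2, both lower. Of 14 genes for cytochrome c and coenzyme Q synthesis 1 fell, Adck3, a kinase-like protein of coenzyme Q synthesis (-0.75 ± 0.12, edgeR adjusted p = 0.00735); Cycs, cytochrome c itself, had -0.10 ± 0.083 (edgeR adjusted p = 0.510). Of 7 tested nucleotide and phosphate carriers, uncouplers and porins 1 fell, the phosphate carrier Slc25a3 (-0.30 ± 0.056, edgeR adjusted p = 0.0124). The Slc25a3 call was lost without control replicates 1 and 4 (edgeR adjusted p = 0.0559). Of 14 TCA cycle genes 1 fell, Cs, citrate synthase (-0.32 ± 0.067, edgeR adjusted p = 0.0172), and 1 rose, Suclg2, a succinyl-CoA ligase subunit (0.34 ± 0.090, edgeR adjusted p = 0.0448). The Suclg2 call was lost without any of the 4 high-fat livers or control replicate 1 or 2 (0.0785 to 0.120; over the 17 alternatives 0.00482 to 0.138), and that of Cs without high-fat replicate 2 or 4 or control replicate 2 (0.0507 to 0.0545; over the 17 alternatives 6.18e-05 to 0.0628).

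Ribosomal protein genes are short housekeeping genes like many members. Of 80 tested cytosolic ribosomal protein genes 62 fell (77.5%), with a median of -0.31, whereas of 76 mitochondrial ribosomal protein genes 5 fell (6.58%), with a median of -0.071. Of 17 regulators of mitochondrial biogenesis 2 fell. Ppargc1a, the coactivator PGC-1alpha, had 4.67, 5.46, 4.64 and 3.92 CPM in high-fat livers, against 8.50, 10.1, 13.0 and 7.27 CPM in control livers (-1.06 ± 0.18, edgeR adjusted p = 0.00936). Esrra, an estrogen-related receptor, was the other (-0.34 ± 0.081, edgeR adjusted p = 0.0312), called in 9 of 17 alternatives (adjusted p from 0.00679 to 0.0940) and not without any of the 4 high-fat livers or control replicate 1 or 2 (0.0678 to 0.0801). Estrogen-related receptor letters were among those searched above. Of the other factors whose letters were searched, Nrf1 (-0.054 ± 0.096, edgeR adjusted p = 0.770) and Gabpa (-0.038 ± 0.048, edgeR adjusted p = 0.679) were not called. The mitochondrial DNA factor Tfam (-0.035 ± 0.073, edgeR adjusted p = 0.805) was not called either.

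**Figure D4:**
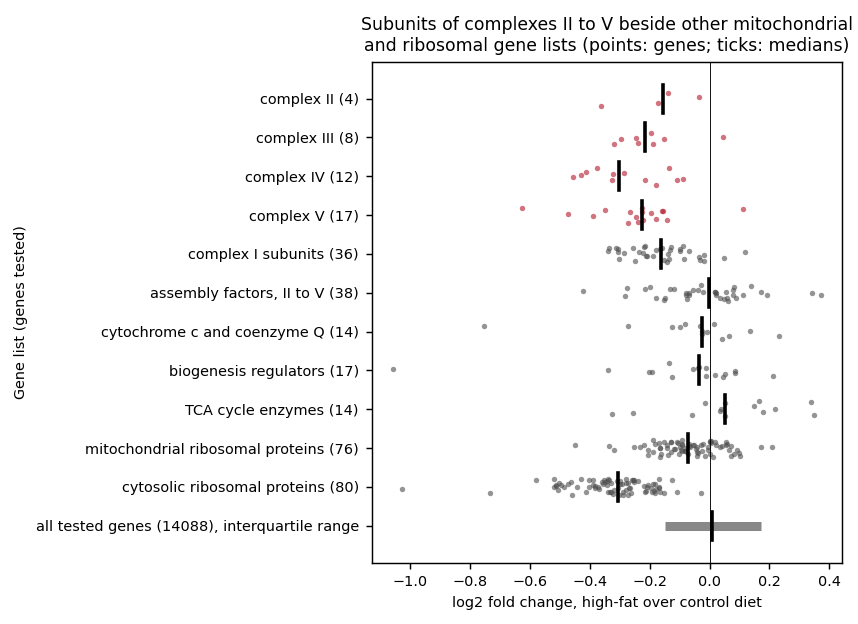
Log2 fold change, high-fat over control diet (horizontal axis), of every tested gene of each list (points; number tested in parentheses), with ticks for medians; the grey bar is the interquartile range of all 14088 tested genes. Medians of complexes II to V lie between -0.30 and -0.16, those of complex I at -0.16 and assembly factors at -0.0031, and that of cytosolic ribosomal proteins at -0.31.

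Markers were read beside these results. Hepatocyte markers marked the tissue as liver, with summed levels of 73869 to 79407 CPM in high-fat and 85575 to 120489 CPM in control livers; 4 of 10 fell (Serpina1a, Cps1, Tat and F2), and none was at 0. Their median log2 fold change was -0.43, beyond the -0.23 of the subunit genes, 7 had an unadjusted p under 0.05, and DESeq2 called 7 and limma-voom 5 lower. Of the 10 markers 7 lay below zero, and the highest value was that of Cyp2e1, at 0.38 (edgeR adjusted p = 0.213). The median difference of the markers runs the same way as that of the subunit genes, and its part in the result was not tested. Muscle markers, which would come with the muscle isoforms, summed to 0.425 to 1.003 CPM in high-fat and 0.407 to 0.995 CPM in control livers, 11 of 12 had at most 10 counts in every library, and Pvalb was at 0. Brown fat markers summed to 198 to 536 CPM in high-fat and 499 to 729 CPM in control livers. Most of that sum was Elovl3, with 188 to 528 CPM in high-fat and 481 to 719 CPM in control livers (-0.82 ± 0.27, edgeR adjusted p = 0.0855). Ppargc1a was called lower by edgeR, and DESeq2 called Elovl3 lower as well. Ucp1 had 0 to 4 counts on either diet.

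White fat markers summed to 3409 to 3999 CPM in high-fat and 2744 to 4587 CPM in control livers. Adipoq was too low to test, at 2 to 10 counts in high-fat and 0 to 42 in control livers, so these sums rest on other listed genes. All 4 tested markers had a log2 fold change above zero (0.059 to 4.74). Cfd was called higher by edgeR and limma-voom, and Cfd and Fabp4 by DESeq2. By edgeR 0 tested markers were called for macrophages (9 tested; 566 to 911 CPM in high-fat and 445 to 1073 CPM in control livers), stellate cells (8 tested; 487 to 876 CPM in high-fat and 456 to 583 CPM in control livers) or endothelium (7 tested; 384 to 454 CPM in high-fat and 367 to 444 CPM in control livers). The same held for cholangiocytes (5 tested; 44.1 to 89.6 CPM in high-fat and 35.3 to 67.1 CPM in control livers), red cells (5 tested; 132 to 224 CPM in high-fat and 134 to 218 CPM in control livers; median log2 fold change 1.32, with 4 of 5 above zero) and lymphocytes (3 tested; 1.93 to 3.52 CPM in high-fat and 2.12 to 3.73 CPM in control livers). At an unadjusted edgeR p under 0.05 there were 2 white fat, 3 stellate, 2 endothelial, 1 cholangiocyte and 3 red cell markers, and no macrophage or lymphocyte marker. Apart from the white fat markers limma-voom called 0, and DESeq2 called 2 endothelial and 2 red cell markers higher. None of the testis markers had enough counts to be tested. The part of these cells in the result was not tested.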

How the data were processed

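The RNA of 4 high-fat and 4 control livers was sequenced. Per the labels' protocols, frozen tissue was extracted with mirVana reagents and made into stranded total RNA libraries (Illumina TruSeq). What the authors deposited is a single table of whole-number read counts per gene with mm10 coordinates. The submitters' processing notes name TopHat2 2.1.1, Trimmomatic 0.32 and bcl2fastq 2.20.0.422. No counting tool, strand setting or annotation release is given in the sources used here, so reads of overlapping or near-identical genes cannot be assigned with certainty.

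Counts were analysed over the whole table in R 4.3.3 with edgeR 4.0.16: filterByExpr, TMM factors, the quasi-likelihood test with no covariate, and Benjamini-Hochberg adjustment over 14088 genes, called at 0.05. The SE of a log2 fold change is its size over the root of the F statistic. Checked on simulated counts, the test recovered most changes of 1 in log2 but few of 0.3. The simulation held fewer changed genes than these data gave calls, and its changed genes were drawn from a wide range of levels. It therefore does not give the sensitivity for the members, some of which were called at differences smaller than 0.3. Transcript and exon lengths came from GENCODE M21 and promoters from RefSeq. Alternatives were other scaling factors and filters, DESeq2 1.42.0, limma-voom (limma 3.58.1), removal of exon length and GC trends (loess, span 0.3), and left-out libraries. The members and lists were chosen with earlier results of these data known. Named with values in each library were the called members, isoform groups, the Sdh genes, the 3 uncalled members with the smallest and the 3 with the largest p, and the most abundant member per kb of each complex.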

Additional observations from a re-analysis of the deposited data

Results flagged for a closer look

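In 82 groups of 4 values (41 genes on each diet), 7 held a library far from the other 3 by Dixon's criterion, where chance gives about 1 in 20 groups. Among the called genes, Cox6c had 169.7 CPM in high-fat replicate 4 against 159 CPM in each of the other high-fat livers. Cox8a had 143 CPM in control replicate 1 against 114 to 117 CPM in the other controls, Atp5j 136 CPM in control replicate 1 against 123 to 125 CPM, and Atp5h 126 CPM in control replicate 4 against 115 to 116 CPM. Among the uncalled genes, Uqcrfs1 had 182 CPM in control replicate 1 against 159.6 to 163 CPM, Uqcr10 96.9 CPM in control replicate 3 against 86.1 to 86.7 CPM, and Sdha 559.9 CPM in control replicate 2 against 628 to 641 CPM.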

How the results depend on the processing

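Over 17 alternatives no member was called higher, and 9 of the 19 called genes (Sdhd, Cox5a, Cox5b, Cox7a2, Cox8a, Atp5e, Atp5g1, Atp5g3 and Atp5j2) were called lower in every one. RLE and upper-quartile factors each called 18 members and a filter of 1 CPM 19. With library totals alone the medians were -0.13 for all members, -0.060 for complex II, -0.12 for III, -0.21 for IV and -0.13 for V, and 4 genes of complex V were called. DESeq2 called 2 genes of complex II and 6 of complex III. Beyond the 19, the members it called lower were Sdhc, Uqcrc1, Uqcrfs1, Uqcrq, Cox4i1, Atp5b and Atp5f1. With no filter 14 members were called, 5 of complex V. With length and GC trends removed 1 gene of complex III was called, and the medians were -0.16 for III and -0.23 for IV. Without control replicates 1 and 4 the calls were 10 in all, 1 in complex III, 4 in IV and 4 in V, and the median of complex II was -0.096. The test then rests on fewer samples, and 3.18% of all tested genes were called lower. Leaving out 1 library gave 12 to 18 calls, 1 to 3 in complex III and 4 to 8 in V, each lowest without high-fat replicate 3, and 5 in V without high-fat replicate 1 or 4 or control replicate 1, with medians of -0.33 to -0.24 for IV and -0.19 to -0.11 for II. Values that changed sign were those of uncalled genes. With library totals Sdha had 0.061, Cox6a1 0.0076, Tfam 0.059, Nrf1 0.041 and Gabpa 0.057. With length and GC trends removed Cox6a1 had 0.055, and without control replicates 1 and 4 Sdha had 0.011. Leaving out 1 library gave -0.0054 to 0.083 for Uqcrc2, -0.57 to 0.096 for the Cox7a1 log2 fold change, -0.0068 to 0.26 for Atp5s, -0.075 to 0.011 for Tfam and -0.094 to 0.026 for Nrf1; the signs turned without control replicate 3, except for Uqcrc2 without control replicate 2 and Tfam also without high-fat replicate 4. Apart from fewer samples in the left-out fits, the cause was not tested. Of 934 values of named genes, 825 kept direction and side of the threshold, 87 lost a call, 9 gained one and 13 changed sign. No paired analysis was possible because the labels name no pairing and replicate numbers follow accession order. Depth limits Cox7a1 and the untested isoforms.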
